A study of Mus musculus with 6 samples.

Results

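The genes described here are 7 genes of the primitive erythroid lineage, the first red blood cells of the embryo: the embryonic globins Hbb-bh1, Hbb-y and Hba-x, the transcription factors Gata1 and Klf1, the haem synthesis gene Alas2 and the erythropoietin receptor gene Epor. They were taken from a list of names, as the probe sets whose only gene symbol on the platform is one of these. The names were chosen with earlier results of these data known. All 7 had a probe set, 1 each, among 15153 genes with a probe set of their own. The tissue was presomitic mesoderm, the unsegmented tail mesoderm that gives rise to somites, microdissected from mouse embryos at embryonic day 9.5 with 17 to 19 somites. Each of 6 arrays read 1 pool of 3 presomitic mesoderms, with 3 pools per genotype that the labels call biological replicates. Mutant embryos were TCre/+;Taf10flox/flox, so that Cre under the control of T (Brachyury), a gene of the primitive streak and nascent mesoderm, deletes Taf10, a subunit gene of the transcription factor complexes TFIID and SAGA. Control embryos, labelled wild type, carried 1 floxed Taf10 allele (Taf10Flox/+) or 2 (Taf10flox/flox). The labels do not say whether any control carried Cre, and whether the red cells of the mutants had lost Taf10 was not measured. The erythroid genes serve as a reading of how much blood each dissected pool held.

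Primitive red cells form in the blood islands of the yolk sac and enter the circulation as large nucleated cells, so embryonic tissue that is dissected rather than sorted carries some of them in its vessels. Their haemoglobin pairs the alpha-like chain of Hba-x, known as zeta globin, with the beta-like chains of Hbb-bh1 and Hbb-y. GATA1 and KLF1 switch on globin and haem genes, ALAS2 makes the first precursor of haem, and the erythropoietin receptor passes on the signal that keeps the cells alive and dividing. In bulk tissue a lower level of such genes can mean fewer red cells or less RNA in each, and these cannot be told apart.

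Array medians lay between 307.9 and 317.5 intensity units, and the deposited values ran from 20.5 to 21070.3. Mutant 3 stood apart over all genes, with a root mean square distance of 0.176 log2 units from its group mean against 0.0758 to 0.108 for the other 5 arrays. On it 43.8% of genes had their highest value and 25.3% their lowest. Control 3 had a log2 level of 6.32 for Xist, the RNA that coats the inactive X chromosome of females, against 11.35 to 12.57 on the other arrays, while the Y-linked Eif2s3y was read at 8.12 to 9.83 on all 6. Of 2 probe sets for Taf10, one was lower on the mutant arrays (10.18 to 10.40 against 10.61 to 10.77 on the log2 scale, limma adjusted p = 0.0400) and the other did not pass (log2 change 0.11, limma adjusted p = 0.530). Since it is unknown here whether the deleted exons are among those they read, neither checks the deletion. Markers of the dissected tissue were read at high log2 levels on all arrays, from 11.90 to 12.77 for Tbx6 and 12.02 to 12.71 for Msgn1. Tbx6 itself was called higher in the mutant (log2 change 0.63, limma adjusted p = 0.0129). Msgn1 did not pass (0.39, limma adjusted p = 0.0739).

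The embryonic globins differed several-fold from pool to pool, and none of them passed the test between the genotypes. Hbb-y, which encodes epsilon-y globin, was read at intensities of 4833, 3033 and 8025 on controls 1 to 3 and at 5302, 5054 and 1249 on mutants 1 to 3. Hbb-bh1, the other embryonic beta-like globin, stood at 3540, 2450 and 6508 on the controls and at 4721, 3852 and 932.2 on the mutants. Hba-x stood at 4517, 3482 and 7373 on the controls and at 6195, 5421 and 1460 on the mutants. In each case control 3 was highest and mutant 3 lowest, mutants 1 and 2 lay among the controls, and the groups overlapped.

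**Figure D1:**
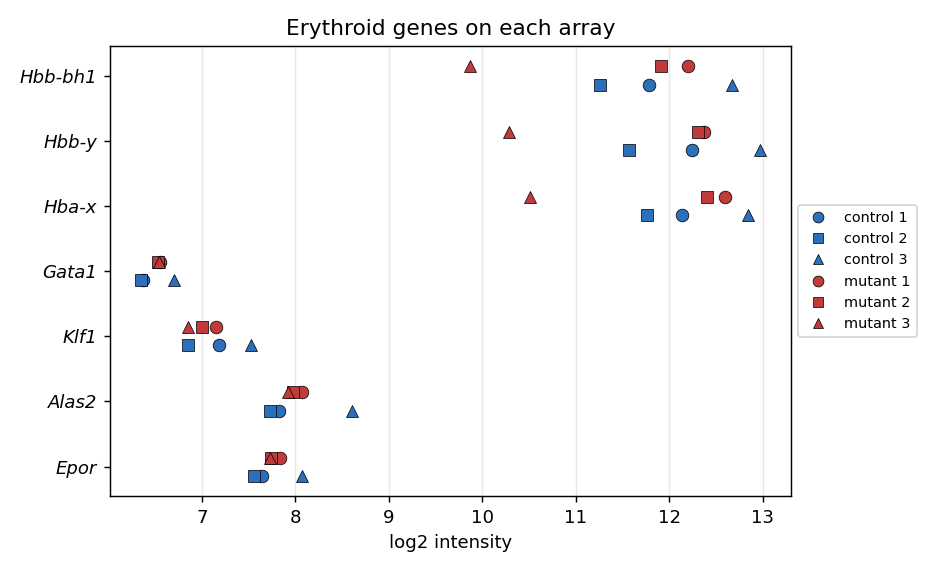
Log2 intensity (x axis) of the 7 erythroid genes (rows) on the 3 control arrays (blue) and the 3 mutant arrays (red); the shape of a point gives the pool number. For the 3 globins mutant 3 lies far to the left, at 9.87 to 10.51, and for all 7 genes control 3 lies farthest to the right.

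On the log2 scale Hbb-y averaged 12.26 ± 0.70 in controls and 11.65 ± 1.19 in mutants (SD, n = 3 each), a change of -0.60 (SE 0.57, 95% interval -1.92 to 0.71, limma adjusted p = 0.554). Hbb-bh1 averaged 11.91 ± 0.71 and 11.33 ± 1.28, a change of -0.58 (SE 0.60, limma adjusted p = 0.593), with a 95% interval from -1.97 to 0.81. Hba-x averaged 12.25 ± 0.55 and 11.84 ± 1.15, a change of -0.41 (SE 0.53, limma adjusted p = 0.665), with a 95% interval from -1.63 to 0.80. All 3 intervals include falls and rises alike. Exact two-sided permutation tests of the 6 values gave p = 0.7, 0.7 and 0.8, where 0.1 is the smallest value possible with 3 pools against 3.

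Few genes of the whole table spanned as wide a range over the 6 arrays. Hbb-bh1 spanned 2.80 log2 units, or 6.98-fold, and only 6 of 15153 genes, itself included, reached that range. Hbb-y spanned 6.43-fold and ranked 7th, and Hba-x spanned 5.05-fold and ranked 13th. Averaged over the 3 globins and set against the mean of the controls, control 3 stood at 161% and mutant 3 at 26.5%, a 6.10-fold gap. Mutants 1 and 2 lay 0.25 and 0.07 log2 units above that mean, control 1 stood at 94.5% of it and control 2 at 65.6%. The gap was 5.65-fold after quantile normalization and 5.97-fold after median centring.

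The 3 globins moved together, including Hba-x, which lies on chromosome 11 while Hbb-bh1 and Hbb-y lie in the beta-globin cluster on chromosome 7. The log2 difference between Hbb-bh1 and Hbb-y on 1 array varied by 0.28 over the 6 arrays, that between Hbb-y and Hba-x by 0.35 and that between Hbb-bh1 and Hba-x by 0.47, where each gene on its own varied by 2.34 to 2.80. Such a difference has no meaning as a ratio of transcripts, since probe sets differ in brightness, and it is used here for its change from array to array. Hbb-bh1 and Hbb-y are related in sequence, and how far their probes read each other's transcripts was not tested. Hbb-bh2, a further beta-like gene of the cluster, varied by 0.24 log2 units over the arrays and was highest on control 2. Its intensities were low, from 63.87 to 75.49, and how much background they hold was not tested.

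The proximal promoters were searched for letters that erythroid factors and the basal machinery are known to read, and 3 are shown. They are those of 2 globins that moved together and that of Alas2. Like the globins Alas2 was highest on control 3, but it did not share their drop on mutant 3. RefSeq promoters in build GRCm38.p6 were matched for 6 of the 7 genes, all but Hbb-bh1, and each sequence below is the 250 bases before the annotated start, on the strand of the gene. Capitals mark GATA sites (AGATAA or TGATAA, on either strand, so that TTATCT and TTATCA count) and TATA boxes (TATAAA or CATAAA, on the strand of the gene).
Hbb-y (chr7:103853208-103853457, minus strand): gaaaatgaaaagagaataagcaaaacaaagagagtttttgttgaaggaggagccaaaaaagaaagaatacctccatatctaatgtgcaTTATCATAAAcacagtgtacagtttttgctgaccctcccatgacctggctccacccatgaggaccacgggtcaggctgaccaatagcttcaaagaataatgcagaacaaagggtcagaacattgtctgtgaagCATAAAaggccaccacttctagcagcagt
Hba-x (chr11:32276350-32276599, plus strand): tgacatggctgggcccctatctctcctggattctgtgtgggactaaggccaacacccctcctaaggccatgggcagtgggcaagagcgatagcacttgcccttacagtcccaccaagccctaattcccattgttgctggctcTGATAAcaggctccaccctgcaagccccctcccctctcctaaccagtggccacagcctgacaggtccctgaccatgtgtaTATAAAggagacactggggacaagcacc
Alas2 (chrX:150547167-150547416, plus strand): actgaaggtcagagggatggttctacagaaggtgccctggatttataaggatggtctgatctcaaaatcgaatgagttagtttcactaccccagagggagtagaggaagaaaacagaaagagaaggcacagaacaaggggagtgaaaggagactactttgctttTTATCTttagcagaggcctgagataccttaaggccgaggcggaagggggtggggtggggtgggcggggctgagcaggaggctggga
A GATA site was found in 5 of the 6 promoters (all but Gata1) and in 16.6% of 32851 promoters of the same length. In Hba-x it began 108 bases before the start, in Hbb-y 162, in Alas2 86, in Klf1 80 and in Epor 54. A TATA box began 28 bases before the start of Hba-x and 29 before that of Hbb-y, and in Hbb-y a second CATAAA overlapped the GATA site. None of the other 4 promoters held these letters, which 12.8% of all promoters did. An exact form of the CACC box that KLF1 is known to bind, CCACACCC on either strand, was in 0 of the 6 windows and in 3.20% of all promoters. Other forms of the box were not searched, so the windows may hold them. These matches describe the letters of the window and do not show binding.

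Of all other genes with a probe set of their own, Car2 and Slc4a1 followed the globins most closely. Probe sets paired with several symbols, among them those of alpha globins, were not ranked. The measure was the root mean square distance between a gene's 6 centred log2 values and the mean centred profile of the 3 globins, over 101 genes whose range was at least 1.30 log2 units where that of the globin profile was 2.61. Car2 encodes carbonic anhydrase 2, which red cells carry in abundance, and lay at a distance of 0.31. Its intensities were 372.7, 262.4 and 763.9 on the controls and 397.9, 321.6 and 155.1 on the mutants. Slc4a1 encodes band 3, the anion exchanger of the red cell membrane, and lay at 0.42, with intensities of 371.6, 313.4 and 783.8 on the controls and 454.9, 394.3 and 230.7 on the mutants. For both, as for the globins, control 3 was highest, mutant 3 lowest and control 2 the lowest control. The next 4 were Snord15a (0.44), Idi1 (0.48), Snora33 (0.49) and Tbca (0.49), which are a small nucleolar RNA, an isoprenoid synthesis enzyme, a second small nucleolar RNA and a tubulin-folding cofactor. These 4 were lowest on mutant 3, but not all stood out on control 3: Idi1, for example, stood at log2 levels of 10.59, 10.64 and 10.64 on the controls and at 9.28 on mutant 3.

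**Figure D2:**
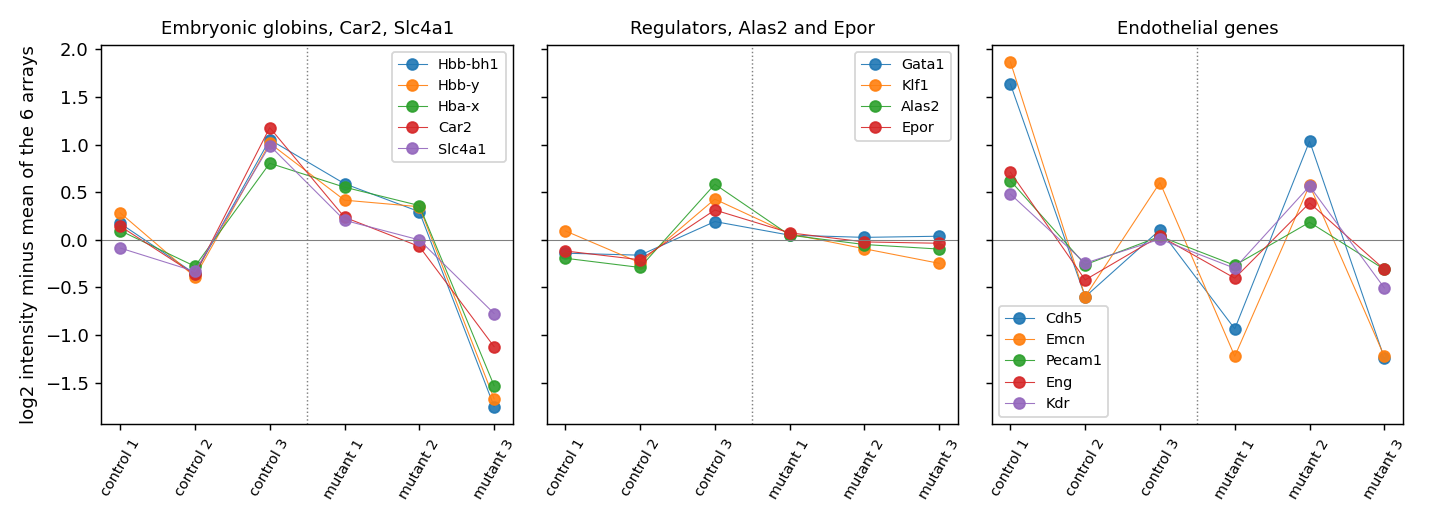
Log2 intensity of single genes on each array minus the gene's mean over the 6 arrays (y axis), for the 3 control and 3 mutant pools (x axis); thin lines only join the points of a gene, as pools have no order. The globins, Car2 and Slc4a1 peak on control 3 and are lowest on mutant 3, and the second panel has the peak on control 3 without the drop. Of the endothelial genes Cdh5, Emcn, Pecam1 and Eng peak on control 1 and Kdr on mutant 2.

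Gata1 and Klf1 had their highest value on control 3 but did not share the globins' drop on mutant 3. Klf1 was read at intensities of 145.8, 115.6 and 183.7 on the controls and 142.8, 128.0 and 115.1 on the mutants. Mutant 3 was thus its lowest pool, though close to control 2. The log2 change of Klf1 was -0.19 (SE 0.16, 95% interval -0.56 to 0.19, limma adjusted p = 0.523, n = 3 each). Gata1 stood at 82.62, 81.40 and 104.0 on the controls and at 94.15, 92.64 and 93.45 on the mutants. Its 3 mutant pools were nearly alike (log2 SD 0.01) and lay between control 1 and control 3. The log2 change of Gata1 was 0.07 (SE 0.10, 95% interval -0.16 to 0.30, limma adjusted p = 0.684). Both genes lie low in the range of intensities, and how much background these values hold was not tested, since no detection calls were used here.

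Alas2 and Epor, like Gata1, were highest on control 3 and lowest on control 2. Alas2 stood at 227.4, 212.6 and 389.6 on the controls and at 269.0, 251.2 and 243.0 on the mutants, so that control 3 lay 1.63-fold above the mean of the 4 pools numbered 1 and 2, and mutant 3 at 102% of that mean. The same comparison gave 30.5% for Hba-x, 28.0% for Hbb-y and 26.3% for Hbb-bh1 on mutant 3, and 1.54-fold, 1.80-fold and 1.84-fold on control 3. Epor stood at 200.5, 188.0 and 269.9 on the controls and at 228.7, 214.0 and 212.0 on the mutants, with control 3 at 1.30-fold and mutant 3 at 102% of the mean of those 4 pools. The log2 change was -0.07 for Alas2 (SE 0.21, 95% interval -0.54 to 0.41, limma adjusted p = 0.872) and 0.01 for Epor (SE 0.13, 95% interval -0.29 to 0.31, limma adjusted p = 0.973). Epor on all arrays, and Alas2 on all but control 3, lay below the lowest array median of 307.9. How much background these values hold, and whether it hides a drop on mutant 3, was not tested. Alas2 and Gata1 are X-linked, and control 3, where both were highest, was also the pool with the low Xist level. The autosomal genes Klf1, Epor and the 3 globins were highest on the same pool. What part the source of the low Xist level has in any of these values was not tested.

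Between the genotypes limma called 0 of the 7 genes, with 0 also at an unadjusted p under 0.05, which 22.7% of all genes had. Of all 15153 genes, 897 changed (5.92%), 449 of them higher in the mutant (2.96%) and 448 lower (2.96%). The groups did not overlap for 0 of the 7 genes, against 32.3% of all genes. The median log2 change of the 7 was -0.19 and that of all genes 0.035. What the 7 genes shared was the pool on which they were highest: control 3 for 7 of 7, against 10.8% of all genes, also after quantile normalization and median centring. Hbb-bh1, Hbb-y, Hba-x and Klf1 were lowest on mutant 3 as well, a combination seen in 3.27% of all genes. Both pools were singled out after the values were seen.

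The direction of the globin difference rested on mutant 3. Without mutant 3 the log2 change was 0.08 for Hbb-y (limma adjusted p = 0.916), 0.15 for Hbb-bh1 (0.831) and 0.25 for Hba-x (0.611), in place of -0.60, -0.58 and -0.41. Without control 3 it was -0.25, -0.20 and -0.12. Without control 3 and mutant 3 together, 2 pools against 2, Hba-x was called higher in the mutant (log2 change 0.55, SE 0.13, limma adjusted p = 0.0324), as 7.40% of all genes then were. For each globin control 3 was the highest pool and mutant 3 the lowest, so leaving both out had to raise the change. The pools were singled out after these values were seen, so the p-values of this fit are no test of a rise. In that fit Hbb-bh1 (log2 change 0.53, limma adjusted p = 0.0878), Hbb-y (0.44, limma adjusted p = 0.178), Alas2 (0.24, limma adjusted p = 0.0567) and Gata1 (0.19, limma adjusted p = 0.0717) did not pass. Alas2 changed sign without control 3 (0.21, limma adjusted p = 0.236).

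**Figure D3:**
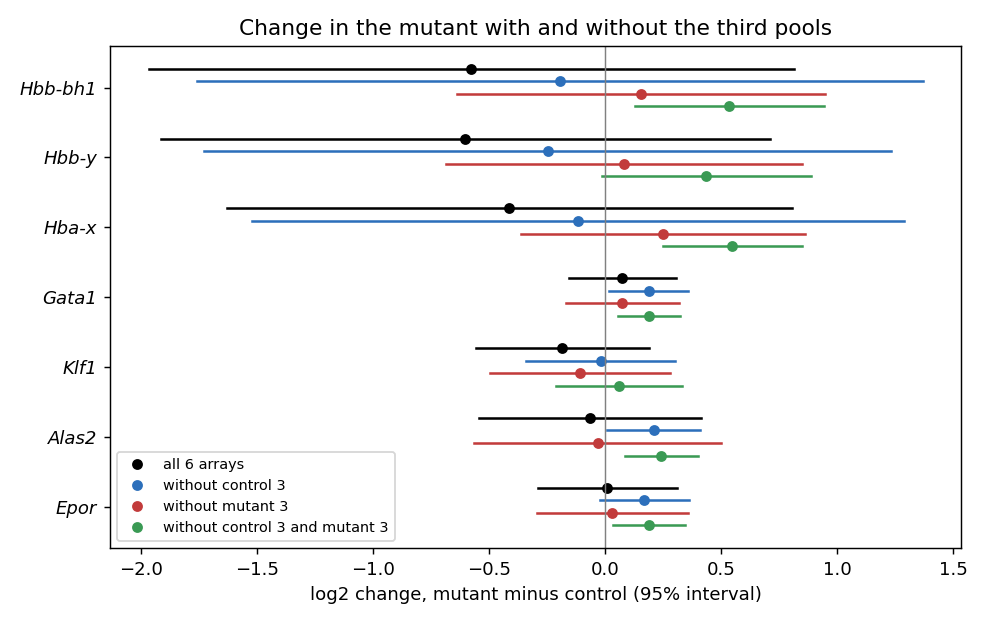
Log2 change of each erythroid gene, mutant minus control (x axis), with the 95% interval of limma's test as a bar, over all 6 arrays (black) and without control 3 (blue), mutant 3 (red) or both (green). For Hbb-y the change is -0.60 over all arrays and 0.44 without both pools.

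The wider erythroid programme was described by 6 lists with 90 measured genes, of which 1 rose and 1 fell, where 2.96% of all genes rose and 2.96% fell. Of the 90, 40 (44.4%) were highest on control 3, against 10.8% of all genes. On mutant 3, 27 of the 90 were lowest, where 25.3% of all genes were. Of 11 other genes of haem synthesis, Uros, which closes the porphyrin ring, rose 1.70-fold (log2 change 0.77, SE 0.10, limma adjusted p = 0.00758). Its intensities were 257.9, 256.3 and 305.3 on the controls and 508.6, 455.0 and 430.4 on the mutants, so that the groups did not overlap and mutant 3 did not stand out. The call was lost without control 1 (limma adjusted p = 0.0590) or control 2 (0.0597). The other 10 did not pass, and 5 of the 11 were highest on control 3: Cpox, Abcb6, Abcb10, Tmem14c and Slc25a37, the last of them the mitochondrial iron importer of red cells. Those 5 were also the lowest on mutant 3, a share of 45.5% against 3.27% of all genes. This was the largest share among the 6 lists. In the others it ran from 0.0% for other globins to 24.1% for red cell membrane and enzymes. Another 3 of the 11 haem synthesis genes (27.3%), Ppox among them, had their highest value on mutant 3, as 43.8% of all genes did. Ranges over the arrays were small beside those of the globins: 0.36 log2 units for Abcb10, 0.50 for Tmem14c, 0.715 for Slc25a37 and 0.80 for Cpox.

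Of 14 genes of erythropoietin and KIT signalling, Socs2, a feedback inhibitor of JAK and STAT signalling, fell to 64.1% of control (log2 change -0.64, SE 0.08, limma adjusted p = 0.00827), and its second probe set fell too (-0.39, limma adjusted p = 0.0208). The call of the first was lost without control 1 (limma adjusted p = 0.0635) or control 2 (0.0647). Socs2 stood at log2 levels of 11.08 to 11.23 on the controls and 10.40 to 10.64 on the mutants, and many cell types express it. The other 13 did not pass. Among 16 genes of iron uptake and haem handling 0 passed, with 4 (25.0%) at an unadjusted p under 0.05 against 22.7% of all genes, led by Aco1, which doubles as an iron sensor (log2 change -0.22, limma adjusted p = 0.102), and the haem exporter gene Flvcr1 (-0.43, limma adjusted p = 0.121). The second probe set of Flvcr1 gave -0.04.

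Of 17 erythroid transcription factor genes limma called 0, with 1 at an unadjusted p under 0.05, Sox6 (log2 change 0.32, limma adjusted p = 0.110). Next came the globin repressor gene Bcl11a (0.17, limma adjusted p = 0.314). Of these 17, 10 were highest on control 3, among them Tal1, Lmo2, Gfi1b and Nfe2. Their ranges over the arrays were small: 0.29 log2 units for Tal1, 0.10 for Lmo2, 0.57 for Gfi1b and 0.23 for Nfe2. Lmo2 was nearly flat, at 10.854 on control 3 and 10.849 on mutant 1. Gfi1b, a repressor needed for red cell maturation, stood at log2 levels of 8.31 on control 3 and 7.74 to 8.12 elsewhere. Among 29 genes of the red cell membrane and enzymes limma called 0, with 1 at an unadjusted p under 0.05, the catalase gene Cat (log2 change 0.34, limma adjusted p = 0.133), and Tspo2 followed (0.19, limma adjusted p = 0.273). In this list 18 of 29 (62.1%) were highest on control 3 and 9 (31.0%) lowest on mutant 3, against 10.8% and 25.3% of all genes. Ank1 and Sptb, which encode ankyrin and beta spectrin of the membrane skeleton and were picked after their values were seen, stood at log2 levels of 8.04 and 8.04 on control 3 and at 7.67 and 7.71 on mutant 3, within or just above the 7.40 to 7.67 and 7.55 to 7.69 of the 4 pools numbered 1 and 2. Of 3 other globin genes measured limma called 0, with 0 at an unadjusted p under 0.05. Beside Hbb-bh2 they are the theta globins Hbq1a (log2 change 0.20, limma adjusted p = 0.398) and Hbq1b (0.12, limma adjusted p = 0.607). Both theta globins had their highest value on mutant 3, as 43.8% of all genes did. The 3 genes were read at low log2 levels, from 5.52 to 7.28, and how much background these hold was not tested.

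**Figure D4:**
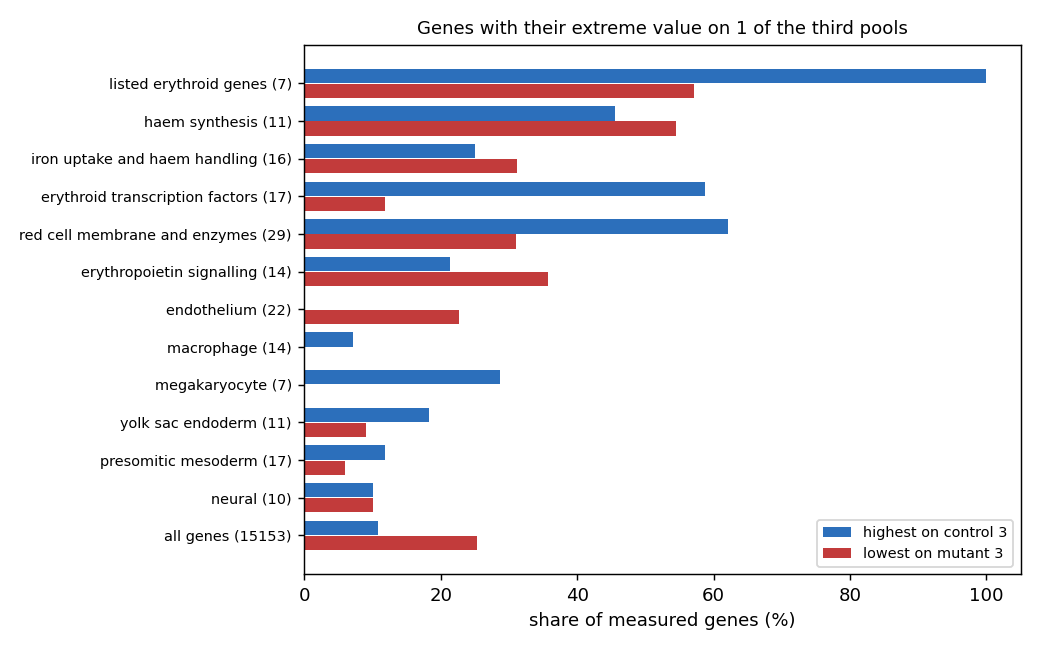
Share of the measured genes of each list (x axis, %) that had their highest value on control 3 (blue) or their lowest on mutant 3 (red). The number of measured genes is in brackets, and the last row is all genes. The list of 3 other globins is not drawn: 0 were highest on control 3 and 0 lowest on mutant 3. All 7 listed erythroid genes and 62.1% of the red cell membrane and enzyme list were highest on control 3, against 10.8% of all genes.

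Markers of the vessel wall took another course, and their part in the erythroid readings was not tested. Of 22 endothelial genes limma called 0, with 0 at an unadjusted p under 0.05, and 0 were highest on control 3. They were highest on control 1 in 14 cases (63.6%, against 15.2% of all genes). Cdh5, the endothelial cadherin, stood at log2 levels of 9.73, 7.49 and 8.20 on the controls and 7.16, 9.13 and 6.85 on the mutants. Control 1 and mutant 2 were thus its high pools, while the globins were highest on control 3. Emcn, which encodes endomucin, stood at 8.57, 6.11 and 7.31 on the controls and 5.48, 7.28 and 5.48 on the mutants (log2 change -1.25, SE 0.66, limma adjusted p = 0.309), and Tek had a log2 change of -0.30 (limma adjusted p = 0.310). Emcn and Cdh5 were among the 5 of 22 endothelial genes (22.7%) that were lowest on mutant 3, the pool with the lowest globin readings, against 25.3% of all genes. For Emcn this was all but a tie, with intensities of 44.64 on mutant 3 and 44.65 on mutant 1.

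Markers of other blood cells and of neighbouring tissues did not pass the test, except in the presomitic mesoderm itself. Of 14 macrophage genes limma called 0, with 0 at an unadjusted p under 0.05, and their log2 levels ran from 5.55 to 8.47. Cd68 had a log2 change of 0.12 (limma adjusted p = 0.382) and C1qa of 0.11 (limma adjusted p = 0.414). Of 7 megakaryocyte genes limma likewise called 0 (0 at an unadjusted p under 0.05), with Thbs1 at -0.13 (limma adjusted p = 0.312) and Treml1 at 0.15 (limma adjusted p = 0.326). Of 11 yolk sac endoderm genes 0 passed and 1 had an unadjusted p under 0.05: Afp, at log2 levels of 6.33 to 6.68 (log2 change -0.21, limma adjusted p = 0.151), with Apoa4 next (0.14, limma adjusted p = 0.300). Of 10 neural genes 0 passed (0 at an unadjusted p under 0.05), led by Nkx1-2 (0.19, limma adjusted p = 0.260) and Foxb1 (0.12, limma adjusted p = 0.412). Of 17 presomitic mesoderm genes 2 rose and 3 fell, where 5.92% of all genes changed, among them Hes7 (log2 change 0.52, limma adjusted p = 0.00758), Cyp26a1 (-0.74, limma adjusted p = 0.00643), Cdx4 (-0.60, limma adjusted p = 0.00912) and Rspo3 (-0.74, limma adjusted p = 0.0127), and 2 of the 17 were highest on control 3. Without control 1 or without control 2, 0 rose and 1 fell: Hes7 then had limma adjusted p = 0.0501 and 0.0626 and Rspo3 0.0692 and 0.0833, while Cyp26a1 was lost without control 1 (0.0501) and Cdx4 without control 2 (0.0675).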

How the data were processed

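The submitters' processing notes name RMA as the source of the deposited intensity values, its version, chip description and probe set filter being not given in the sources used here. Pools were hybridised from 150 ng RNA. The values are linear and were used as log2, without rescaling. Of 18064 probe sets, 16311 had 1 gene symbol, 734 several and 1019 none here, and 16284 gene IDs matched RefSeq. A model of 3 mutant against 3 control arrays, without covariates, was run over the 16311 (limma 3.58.1, R 4.3.3, tested on simulated data), with Benjamini-Hochberg adjustment over all of them and a threshold of 0.05. The probe set with the highest mean stood for a gene. The number of arrays limits the precision, and the p-values rest on variation among these pools alone. Members and lists were chosen with earlier results of these data known. Named genes are the 7 members, those past the threshold in a list (at most 4, by p) or else its 2 lowest p, the 6 closest to the globin profile, Xist and Eif2s3y; any others were chosen after their values were seen. Alternatives were a replicate block, quantile normalization, median centring, a level filter at the 40th percentile, a variance trend with robust moderation, all probe sets, Xist as covariate, array weights, other thresholds and arrays left out.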

Additional observations from a re-analysis of the deposited data

Results flagged for a closer look

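Of 5 probe sets paired with several symbols, at least 1 of them a gene of the lists used here, 3 lay higher on every mutant array than on every control array, by 0.16, 0.16 and 0.22 on the log2 scale. The groups did not overlap for 32.3% of all genes. They are outside the fit described above, and no gene is named from them.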

How the results depend on the processing

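Of the 7 genes, 0 were called in either direction under the alternatives run, except that Hba-x was called higher without control 3 and mutant 3 (1 gene). Those pools were singled out after the values were seen. The level filter left out Gata1 and Klf1, and the median log2 change of the 5 genes left was -0.41, against -0.19 over all 7. Signs changed for Epor after quantile normalization (-0.034) and for Alas2 with Xist as covariate (0.15). With array weights they changed for Hbb-bh1 (0.18), Hbb-y (0.19), Hba-x (0.27), Alas2 (0.006) and Tbca (0.019). Without control 3 and mutant 3 they changed for Hbb-bh1 (0.53), Hbb-y (0.44), Hba-x (0.55), Klf1 (0.059), Alas2 (0.24), Car2 (0.19), Slc4a1 (0.31) and Tbca (0.089); the median of the 7 was then 0.24 and the globin mean 0.51, against -0.19 and -0.53. The cause was not tested. With 1 array left out, changes ran from -1.02 to 0.15 for Hbb-bh1, -0.96 to 0.079 for Hbb-y, -0.79 to 0.25 for Hba-x, 0.01 to 0.19 for Gata1, -0.35 to -0.02 for Klf1, -0.23 to 0.21 for Alas2 and -0.093 to 0.168 for Epor, from -0.35 to 0.07 for the median of the 7 and from -0.92 to 0.16 for the globin mean. Hbq1b was -0.016 without control 1, Slc4a1 ran from -0.642 to 0.019 (without control 3) and Tbca from -0.564 to 0.092 (without mutant 3).

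The genes called over the whole table numbered 897, and 514 with Xist as covariate, 3608 with array weights, 2125 without control 3 and mutant 3, 1711 at a threshold of 0.10, 140 at 0.01 and 41 to 1945 with 1 array left out. In the 6 wider lists 1 rose and 1 fell; 7 rose and 4 fell with array weights, 4 rose without control 3 and mutant 3, 2 fell after quantile normalization or at 0.10, and with 1 array left out 0 to 2 rose and 0 to 3 fell. Replicate numbers are shared by the genotypes but not said to pair pools: same-numbered pools had correlations of their deviations of 0.13, 0.08 and 0.32, and control 1 correlated best with mutant 2 (0.20). With the replicate number as a block 0 of the 7 genes were called (Hbb-y adjusted p = 0.551) and the genes called over the whole table numbered 1084.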

Other observations

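A pair of probe sets that the platform pairs with more than 1 alpha globin symbol, and which were therefore in no comparison, read log2 levels of 12.62, 12.35 and 13.17 and of 11.68, 11.37 and 12.66 on controls 1 to 3. On mutants 1 to 3 they read 13.07, 13.09 and 11.47 and 12.06, 11.97 and 10.35, again highest on control 3 and lowest on mutant 3. Tfrc, the transferrin receptor gene, was picked after its values were seen: it stood at log2 levels of 10.02 to 10.28 on 5 arrays and at 8.98 on mutant 3, and did not differ in this way between control 3 and the other controls. Cd34, which marks endothelium and blood progenitors and was also picked later, followed Cdh5, at 8.96 on control 1, 8.03 on mutant 2 and 6.65 to 7.68 on the other 4 arrays.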
